A study of Mus musculus with 4 samples.

Results

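Mouse chromosome 2 was described here through 904 genes expressed in 4T1 cells, a mammary carcinoma line of mouse that is often used to model the triple-negative form of breast cancer. These were the genes of the chromosome with a single gene symbol and a mean log2 value of at least 6 over all 4 arrays, taken from 2660 genes of the chromosome with 1 symbol and from 10466 expressed genes on 20 chromosomes. Each gene was represented by its brightest row. The genes were chosen by their mean level over all arrays, so the level is given only as a description, while the difference between the groups was not used. Genes next to the limit were Metap1d at 6.001, Ap5s1 at 6.007 and Sulf2 at 6.02 on the inner side, and Gm13333 at 5.998, Gm5270 at 5.995 and Dnajc17 at 5.995 on the outer side. Sulf2 passed through its NC arrays and was under 6 on the other arrays, so it passed through the group where it was bright. In 14 genes the mean was under 6 in NC and in 6 it was under 6 in shMCT-1, so these had to differ in that direction. Among the 884 genes without them 628 (71.0%) had the higher mean in shMCT-1, and the median difference was 0.12. A total of 9 of the 904 genes, in 3 sets of near-identical predicted genes, had the same values as another gene and are not separate measurements.

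The samples were 2 arrays of 4T1 cells with a scramble control (NC) and 2 arrays of 4T1 cells with a short hairpin RNA against MCT-1 (shMCT-1), the latter grown as clones selected with puromycin. All were cultured in RPMI-1640 with fetal bovine serum, glutamine and penicillin with streptomycin, and total RNA was labelled with biotin for Affymetrix whole-transcript arrays. The labels call the replicates biological, but do not state how many clones stood behind each array or whether the control was selected too. The p-values thus cover only the spread between these samples. The comparison, shMCT-1 minus NC, asked how silencing MCT-1 alters expression, and here it was followed along 1 chromosome.

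MCT-1, encoded by the X-linked gene Mcts1, binds the protein DENR, and the pair helps ribosomes to be recycled and to start again on some messages. Mcts2 is a copy of Mcts1 without introns that lies on chromosome 2 inside an intron of H13, the gene of a signal peptide peptidase. It is imprinted, which means that 1 parental allele is expressed, and its promoter is a CpG island that carries methylation on the maternal allele. The chromosome also carries the imprinted genes Gnas, Nnat, Blcap and Sfmbt2, the interleukin 1 genes, and many genes of DNA replication and mitosis.

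Sequences are shown for Mcts2 and its host gene H13, whose values differed although one lies inside the other, for Mall, which had the lowest p on the chromosome, and for Ifih1, whose values were set by 1 array. For the first 3 genes they are the 250 bases before the start site, and for Ifih1 a stretch of 30 bases just after it, from RefSeq's annotation of GRCm38.p6. The positions are chr2:152686898-152687147 on the plus strand for Mcts2, chr2:152669211-152669460 on the plus strand for H13, chr2:127729898-127730147 on the minus strand for Mall and chr2:62646206-62646235 on the minus strand for Ifih1. Capitals mark matches to the motifs searched.
Mcts2: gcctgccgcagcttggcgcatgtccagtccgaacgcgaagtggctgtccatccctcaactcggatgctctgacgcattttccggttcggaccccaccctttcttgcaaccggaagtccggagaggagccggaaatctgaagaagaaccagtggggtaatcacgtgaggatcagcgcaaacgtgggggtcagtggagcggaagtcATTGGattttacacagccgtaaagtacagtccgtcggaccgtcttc
H13: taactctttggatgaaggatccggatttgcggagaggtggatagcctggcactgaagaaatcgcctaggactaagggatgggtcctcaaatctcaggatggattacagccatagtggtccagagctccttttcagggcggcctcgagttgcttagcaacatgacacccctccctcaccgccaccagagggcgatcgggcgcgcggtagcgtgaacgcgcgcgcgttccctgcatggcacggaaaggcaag
Mall: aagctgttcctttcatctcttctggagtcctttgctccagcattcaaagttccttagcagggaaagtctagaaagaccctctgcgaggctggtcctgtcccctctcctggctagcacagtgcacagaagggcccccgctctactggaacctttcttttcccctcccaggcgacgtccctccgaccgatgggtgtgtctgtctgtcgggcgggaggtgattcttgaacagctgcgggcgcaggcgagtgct
Ifih1: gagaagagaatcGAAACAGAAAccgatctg
The search took the CCAAT box (CCAAT), the TATA box (TATAAA), an E2F site (TTTCCCGC), an AP-1 site (TGACTCA) and the interferon-stimulated response element, by its core letters, on both strands, in the 250 bases before and the 50 after each start site. Mcts2 held 1 CCAAT box on the opposite strand at bases 205 to 209, and Ifih1 held 1 interferon-stimulated response element at bases 283 to 292, where base 1 is the first of the window. The windows of H13 and Mall held no match to these letters. Mcts2 had 20 CpG pairs in the bases shown, H13 had 18 and Mall had 11.

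Promoter windows were listed for 556 of the 904 genes, 694 windows in all, and were set beside 32851 windows of the whole genome. The median number of CpG pairs was 21 in the windows of the expressed genes and 7 in all windows. These windows include the 50 bases after the start site, so the counts given above for 250 bases are not on the same length. The TATA box letters occurred in 5.62% against 13.6% of windows, the CCAAT box in 34.7% against 37.4%, and the AP-1 site in 3.75% against 5.20%. The interferon-stimulated response element occurred in 3.03% against 3.44%, and the E2F site in 1.30% against 1.07%. The expressed genes were thus rich in CpG promoters and poor in the TATA box letters, beside all annotated promoters. A match is a match of letters only.

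The labels were checked before the chromosome was read. Mcts1 had log2 values of 7.86 and 8.05 on the NC arrays and 7.81 and 7.89 on the other arrays, a difference of -0.10 that did not pass (limma adjusted p = 0.945), so the latter are called the arrays labelled shMCT-1. The 6 epithelial markers fixed for 4T1 lay between 11.1 and 16.7 on every array. The measured markers of lymphocytes (4), fibroblasts (4) and endothelium (5) were at most at 3.97, 3.93 and 4.24. Of 5 macrophage markers 1 had a mean of at least 6, Cd68, at 10.15 and 8.26 on the NC arrays and 8.55 and 8.999 on the others. Csf1r was at 6.07 and 4.61 on the NC arrays and 5.27 and 4.47 on the others, so both were highest on NC replicate 1. Ptprc, the leukocyte antigen CD45, lay between 3.33 and 3.48, and Adgre1 and Lyz2 were at most at 3.49 and 3.01. The part of such cells in the results was not tested. Array medians lay between 3.68 and 3.73. NC replicate 1 stood apart from the other arrays through high interferon-stimulated genes, as Usp18 shows, which was at 12.30 there, at 6.91 on the second NC array, and at 7.33 and 5.72 on the arrays labelled shMCT-1. Many of the results on which this array bears are therefore given with and without it. Each group had 2 arrays, and this number limits the precision of every value.

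Chromosome 2 as a whole lay slightly higher in the arrays labelled shMCT-1. The median difference of its 904 expressed genes was 0.12 on the log2 scale, with quartiles of -0.023 and 0.27, against 0.019 over all 10466 expressed genes. Without 1 array it lay between 0.070, when shMCT-1 replicate 2 was left out, and 0.15, when shMCT-1 replicate 1 was. Among 20 chromosomes it ranked 2 from the highest, after chromosome 15 at 0.14 and before chromosome 17 at 0.11, and chromosomes 8 and 14 were lowest at -0.16 and -0.13. The shift was small, as the chromosome lay 0.11, or 1.08-fold, above the median of the other chromosomes.

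Every pairing of the arrays gave that excess over the other chromosomes. It was 0.11 for shMCT-1 replicate 1 against NC replicate 1, 0.095 for the same array against NC replicate 2, and 0.13 for shMCT-1 replicate 2 against either NC array. Replicate 2 minus replicate 1 gave 0.024 for the NC pair and 0.021 for the pair labelled shMCT-1. The 4 differences between groups were thus 4 or more times as large as the differences within them, although the 4 pairs share arrays and are not independent. An exact permutation of 2 against 2 arrays cannot go below p = 0.333, so no p is given. Leaving out 1 array moved the excess only between 0.11 and 0.12, and it was 0.11 without NC replicate 1.

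This pattern was not particular to chromosome 2. On 16 of 20 chromosomes the 4 pairs had one sign, and on 14 of these each pair was also larger than both replicate differences, 7 higher and 7 lower. Chromosome 2 was 1 of the 7 higher ones. Whether copy number differs between the cells was not measured by these arrays, and its part in the result was not tested.

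**Figure D1:**
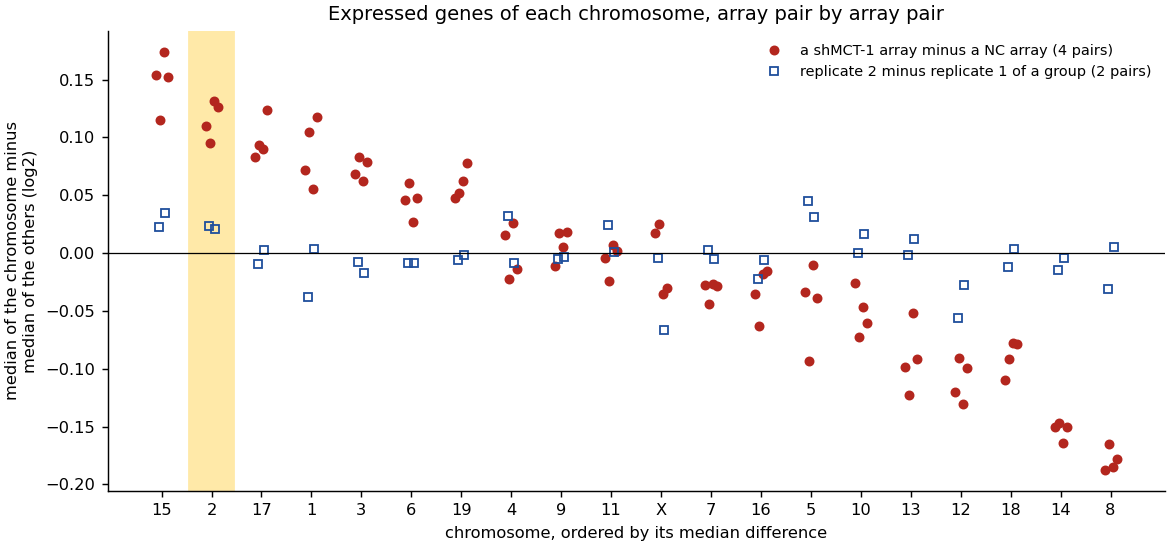
Median log2 difference of the expressed genes of each chromosome minus that of all other chromosomes, for each of the 4 pairs of a shMCT-1 and an NC array (filled circles) and for replicate 2 minus replicate 1 of each group (open squares). The shaded chromosome 2 lies between 0.095 and 0.13 in the 4 pairs and at 0.024 and 0.021 between replicates.

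No single gene of the chromosome passed the test. With limma 0 of 904 genes had an adjusted p under 0.05 (0% called, over all 65956 rows), while 79 (8.74%) had an unadjusted p under 0.05. That share was 8.73% for expressed genes on the other chromosomes and 5.61% over all rows, so the count was at the background. The direction of these 79 differed from the background, with 67 higher (7.41% of genes, against 2.96% elsewhere) and 12 lower (1.33% against 5.77%). When 1.5-fold was asked as well, 9 genes were left, 0.996% against 2.23% elsewhere and 1.23% of all rows. On the higher side were 7 (0.774% against 0.69%), namely Mall, Gm13502, Gm23969, Aif1l, Mir466d, Rif1 and Pigt, and on the lower side 2 (0.221% against 1.54%), Sulf2 and Trp53i11. Some of these are named after their values were seen. Sulf2 reached the level limit only through NC, so its direction was set by the limit. These counts by p, without regard to direction, were thus at or under those of the other chromosomes. On the higher side the count by p alone was above them, while with 1.5-fold it was near them. The lower side was below them in both counts.

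Counts of direction showed the same lean. The arrays labelled shMCT-1 had the higher mean in 642 genes, 71.0% against 51.5% of expressed genes elsewhere. In 305 genes (33.7%, against 17% elsewhere) both arrays labelled shMCT-1 lay above both NC arrays, and in 79 genes (8.74%, against 22%) both lay below. After centring each array on its median these counts were 226 (25%, against 12.6%) and 99 (11%, against 24.7%). In either direction the arrays lay fully apart in 42.5% of the genes, in 39% elsewhere and in 33.9% of all rows. Differences of at least 0.5 on the log2 scale were found higher in 49 genes (5.42% against 2.73%) and lower in 15 (1.66% against 5.05%). The share of genes with a higher mean was 65.5% after a further quantile normalization and 66.5% after centring each array on its median.

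The lean was found on both strands, in the larger gene classes and at each brightness. The 469 genes of the plus strand had a median difference of 0.11 and the 435 of the minus strand 0.12. Protein-coding genes (606) had a median of 0.13, predicted genes, Rik clones and pseudogenes (268) one of 0.10, and microRNA genes (21) one of 0.26. Of the microRNA genes 19 lie inside Sfmbt2 and may share probe signal, and without NC replicate 1 these had a median of 0.094. A further 7 genes of other kinds had one of 0.26, and the 2 small nucleolar RNA genes one of -0.094, with 1 of them higher. By brightness of the row, the dimmest 302 genes had a median of 0.073, the middle 300 one of 0.16 and the brightest 302 one of 0.13.

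Along the chromosome, the genes of each strand were taken in the order of their row numbers and cut into blocks of 25. The strand split was checked against RefSeq's annotation of GRCm38.p6, where 1512 of 1536 genes (98.4%) lay on the strand assigned. Row order and RefSeq start had a rank correlation across genes of 0.999 on the plus strand and 0.937 on the minus strand. The last minus block joined 35 genes, some of them out of order, since rows at the end of the numbering do not follow position.

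Of 36 blocks, 35 had a median above 0, and no stretch of the chromosome stood out by much. Block medians ran from -0.056 to 0.25 with an SD of 0.058. Over the 383 blocks of the other chromosomes together the range was -1.22 to 0.34 and the SD 0.12, and 210 were above 0. That pooled SD also holds the shifts between chromosomes. Within single chromosomes the SD was 0.28 on chromosome 8, which held the block at -1.22. On the rest it lay between 0.035 (chromosome 6) and 0.087 (chromosome 13), so that of chromosome 2 was within their range. In 25 blocks (of 36) both arrays labelled shMCT-1 lay above both NC arrays in the median deviation from the gene means, and in 0 blocks below, while elsewhere this was so in 79 and 89 of 383. Without NC replicate 1, 36 of 36 blocks were above 0, and without shMCT-1 replicate 2, 33 were.

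**Figure D2:**
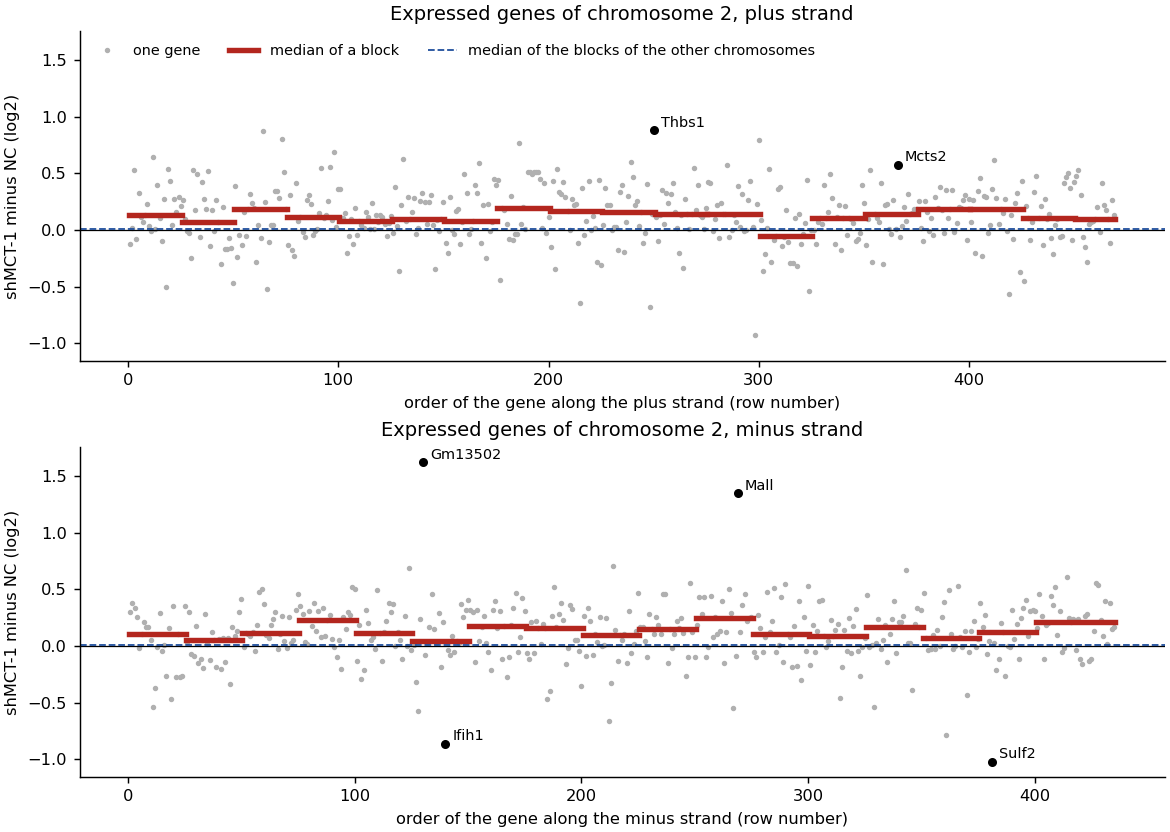
Log2 difference, shMCT-1 minus NC, of each of the 904 genes (grey points) against its order along the plus strand (469 genes) and the minus strand (435 genes), with the median of each block of 25 genes (red bars) and the median of the blocks of the other chromosomes, 0.0097 (dashed line). All blocks but 1 lie above 0, and single genes scatter far more widely than the blocks.

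The lowest block ran on the plus strand from Chchd5 to Gm14094 and had a median of -0.056. Its median deviations were 0.031 and -0.00097 on the NC arrays and 0.0059 and -0.024 on the arrays labelled shMCT-1, so the groups overlapped, and 10 of its 25 genes were higher. Genes with the largest negative values there were the predicted gene Gm25704, Gm14026 and Smox, which encodes spermine oxidase, at -0.54, -0.37 and -0.32. Smox and Gm25704 turned to 0.059 and 0.71 without NC replicate 1, and the block median was 0.012 without it. The same block held the mitochondrial ribosomal protein gene Mrps26 at 0.36, so its genes did not share 1 sign.

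The highest block ran on the minus strand from Tmem87a to Ckap2l and had a median of 0.25. Its median deviations were -0.17 and -0.069 on the NC arrays and 0.086 and 0.14 on the arrays labelled shMCT-1, which lay apart, and 20 of its 25 genes were higher. Leading genes were Mall at 1.35, Itpripl1 at 0.50 and the predicted gene Gm14008 at 0.46. Prom2, a prominin of epithelial membrane protrusions, lay in the same block at -0.55. The next block in rank, from Spout1 to Traf1 on the minus strand, had a median of 0.23 and 22 of 25 genes higher, led by Phf19 at 0.52, a Polycomb-associated protein, Traf1 at 0.50 and BC005624 at 0.37.

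On the plus strand the highest block, from Plekha3 to Gm23716, had a median of 0.20. It was led by the predicted genes Gm13675, Gm13693 and Gm13696, the last 2 of which belong to 5 near-identical genes with 1 set of values (0.51 each). With these taken as 1 gene the median was 0.11, below that of several other plus-strand blocks. The second, from Gm14494 to Fam83d, had a median of 0.18 and was led by Gm14251 at 0.38, Aar2 at 0.35, a factor of the splicing machinery, and Gm14277 at 0.35. Gm14277 was at -0.021 without NC replicate 1. Low plus-strand values in the block from Mir467c to Thnsl1 (median 0.067) came from Thnsl1 at -0.47, Commd3 at -0.30 and Mir669j at -0.25.

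Low blocks of the minus strand held 2 of the interferon-related genes. The block from Gm13493 to Mettl5 had a median of 0.041, with Ifih1 at -0.87, Nmi at -0.57 and Rbm43 at -0.31 as its lowest genes by the naming rule. All 3 were highest on NC replicate 1, and without that array they were at -0.093, -0.046 and 0.0011. The block from Gm13268 to Ssna1 had a median of 0.048, with Arrdc1 at -0.33, Mastl, a mitotic kinase, at -0.20 and Pip4k2a, a lipid kinase, at -0.20.

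Neighbouring genes had almost no relation to each other. The correlation of a gene's difference with that of the next gene on its strand was 0.014 (Pearson) and 0.020 (Spearman) over 897 pairs of genes, as a description across genes, which share arrays and are not independent. On the other chromosomes it was 0.075 over 9452 pairs, and on chromosome 2 it was 0.014 for NC replicate 2 minus 1 and 0.010 for shMCT-1 replicate 2 minus 1. At distances of 2, 5, 10 and 20 genes it was -0.033, 0.039, -0.0029 and 0.042. Blocks held 4.60% of the variance of the differences between genes, against 4.32% for the replicate difference of NC and 4.60% for that of shMCT-1. Over the other chromosomes that share ran from 2.38% to 35.9%, with a median of 5.37%, and the highest was that of chromosome 8. The share on chromosome 2 was thus about as large as for the replicate differences.

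Genes of both strands were also placed in 1 order by RefSeq's annotation, which took 881 of the 904 genes and gave 18 stretches of 50 genes (31 in the last). Their medians lay between 0.0014, for the stretch from Gm13292 to Gm13418, and 0.20, for that from Itprid2 to Slc39a13. In the lowest stretch 25 of 50 genes were higher, and the strands had medians of -0.0083 (plus) and 0.011 (minus). In the highest, 37 of 50 were higher, with 0.30 on the plus and 0.16 on the minus strand. Across the 18 stretches the medians of the strands had a Pearson correlation of 0.21 and a Spearman correlation of 0.24, as a description over stretches of the same 4 arrays, and the Pearson value ranged from 0.054 to 0.39 when 1 array was left out. The relation between the strands was thus weak.

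Mcts2 lay in position 366 of 469 on the plus strand and 694 of 881 in the joint order. Its log2 values were 5.81 and 6.61 on the NC arrays and 6.61 and 6.96 on the arrays labelled shMCT-1. The higher NC array and the lower array labelled shMCT-1 were nearly level, 0.0017 apart, while the NC replicates differed by 0.80, so the spread came mainly from NC replicate 1. The difference was 0.57 (SE 0.302, 95% interval -0.22 to 1.36, limma adjusted p = 0.896), and it did not pass. Leaving out 1 array gave values between 0.17, when NC replicate 1 was dropped, and 0.98, when NC replicate 2 was. By difference Mcts2 ranked 18 of 904. Whether its probes also catch transcripts of Mcts1 was not tested.

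The genes around Mcts2 did not share its value. Of 14 neighbours, the 5 on either side in the order of its strand and in the joint order, 11 were higher with a median of 0.030, from -0.54 for Trib3 to 0.32 for Pofut1. After quantile normalization 8 of the 14 were higher and after centring 7, with Rbck1 and Bcl2l1 under 0 in both and Tbc1d20 under 0 after centring. H13, the host gene, was at 10.65 and 11.004 on the NC arrays and 10.65 and 11.01 on the arrays labelled shMCT-1, a difference of 0.0075 that turned to -0.0073 and -0.019 under quantile normalization and centring. In H13 the replicates of each number were level and the groups overlapped entirely. Id1, the inhibitor of DNA binding next to it, was at -0.063, and Bcl2l1, the gene of the anti-apoptotic protein Bcl-xL, at 0.026. Tpx2, a spindle assembly factor, was at 13.50 and 13.43 on the NC arrays and at 13.67 on both others, a difference of 0.20 with separate arrays. The block of Mcts2, from Pygb to Mapre1, had a median of 0.14, and 0.12 with Mcts2 left out, so Mcts2 did not make it.

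Trib3, a pseudokinase of the stress response driven by ATF4, was the neighbour that varied most. It was at 8.49 and 5.82 on the NC arrays and 6.68 and 6.55 on the arrays labelled shMCT-1, which lay between the NC values. The difference of -0.54 (SE 0.875) turned to 0.80 without NC replicate 1 and was -1.87 without NC replicate 2.

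**Figure D3:**
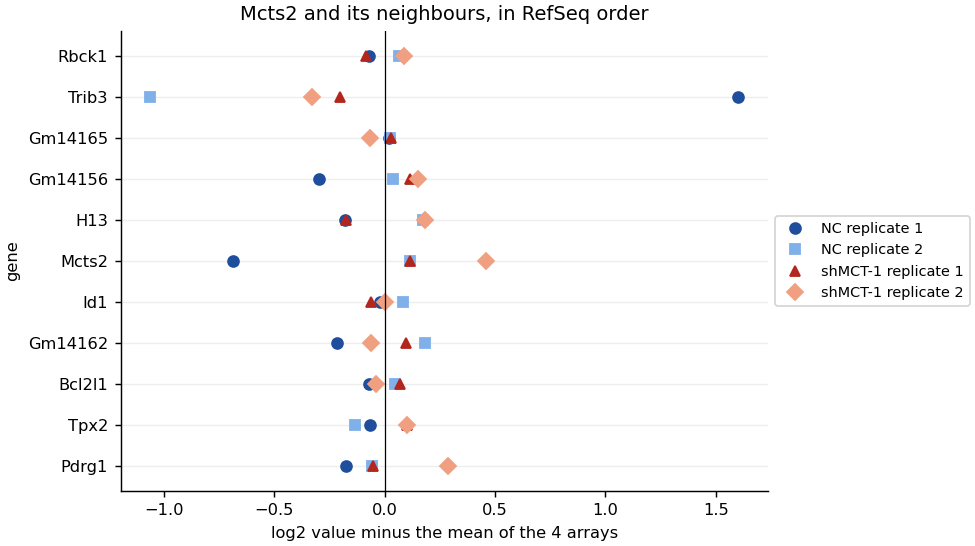
Log2 value of each array minus the mean of the 4 arrays, for Mcts2 and the 5 members before and after it in RefSeq order. NC replicate 1 is the lowest array for Mcts2 and by far the highest for Trib3, and the host gene H13 splits by replicate number rather than by group.

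The genes whose 4 values followed those of Mcts2 most closely, by the root mean square distance of their deviations over 4 arrays, were Itpripl1 (0.042), Hspe1-ps5 (0.051), Trmt6 (0.054), Gm14238 (0.070) and Gm13998 (0.072). Trmt6, a subunit of a tRNA methyltransferase, was at 7.64 and 8.41 on the NC arrays and at 8.33 and 8.81 on the arrays labelled shMCT-1. Its lower array labelled shMCT-1 was thus below its higher NC array. Of the 904 genes, Mcts2 included, 196 had their 4 arrays in the order of Mcts2, with NC replicate 1 lowest and shMCT-1 replicate 2 highest, 21.7% against 9.43% of expressed genes on the other chromosomes.

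Only 3 genes differed by 1 log2 unit or more. Mall, a membrane proteolipid of the MAL family found in lipid rafts, was at 7.68 and 7.56 on the NC arrays and 8.99 and 8.94 on the arrays labelled shMCT-1. The groups lay far apart and the replicates close together, with a difference of 1.35 (SE 0.111, unadjusted p = 9.65e-05, limma adjusted p = 0.831). Mal, its relative in the same block, was at 13.78, 12.77, 13.51 and 12.86 on the same arrays, with overlapping groups and a difference of -0.088 (0.42 without NC replicate 1). The predicted gene Gm13502 was at 11.999 and 12.79 against 14.33 and 13.70, a difference of 1.62 (SE 0.345). Sulf2, an enzyme that removes sulfate from heparan sulfate chains, was at 6.98 and 6.09 against 5.64 and 5.38, a difference of -1.02 (SE 0.318). Neither passed (limma adjusted p = 0.882 for each). Sulf2 had reached the level limit only through its NC arrays, so it had to be lower in shMCT-1.

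The lowest unadjusted p on the higher side, with predicted and small RNA genes left out, belonged to Mall, Rif1, Pigt, Mga, Gins1, Agps, Traf1 and Zfp106. Rif1, which times replication origins and protects DNA ends, was at 10.12 and 10.27 on the NC arrays and 10.77 and 10.88 on the arrays labelled shMCT-1 (difference 0.63, SE 0.118). Gins1, a subunit of the replicative helicase complex, was at 8.52 and 8.67 against 9.20 and 9.06 (0.53, SE 0.122). Mga, a partner of MAX in transcription, was at 6.87 and 6.99 against 7.39 and 7.57 (0.55, SE 0.124). In these 3 genes all arrays of one group lay above all of the other. Pigt, of the enzyme complex that attaches GPI anchors, was at 8.22 and 8.19 against 8.68 and 8.96 (0.62, SE 0.136). Agps, an enzyme of ether lipid synthesis in peroxisomes, had a difference of 0.45 (SE 0.109) and Zfp106, a zinc finger protein, one of 0.44 (SE 0.109). None of them passed, with a limma adjusted p of 0.882 each.

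On the lower side the lowest p belonged to Mmp9, a secreted gelatinase. It was at 12.25 and 12.28 on the NC arrays and 11.62 and 11.78 on the arrays labelled shMCT-1 (difference -0.57, SE 0.113), with separate groups. Prom2 was at 6.97 and 6.81 against 6.36 and 6.32 (-0.55, SE 0.114). Echdc3, a mitochondrial hydratase-like protein, was at 7.76 and 7.40 against 7.08 and 7.001 (-0.54, SE 0.157), and Trp53i11 at 8.24 and 7.68 against 7.38 and 7.24 (-0.65, SE 0.214). All 4 had separate arrays and the limma adjusted p was 0.882 for each. Smaller values were found for Ext2, a heparan sulfate polymerase subunit (-0.36), Arrdc1, an arrestin-domain protein (-0.33), and Commd3 (-0.30).

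Genes of the cell cycle and DNA replication had the most expressed members of the lists. All 26 measured members were expressed, 24 were higher and 15 had both arrays labelled shMCT-1 above both NC arrays, while 0 passed with limma over all rows and 4 had an unadjusted p under 0.05. As background for this and the other lists, 71.0% of all 904 genes were higher and 8.74% had an unadjusted p under 0.05. Both arrays labelled shMCT-1 lay above both NC arrays in 33.7% of the 904 and below in 8.74%. The median difference of the 26 members was 0.22, against 0.12 over all genes of the chromosome. It stayed between 0.18 and 0.31 when 1 array was left out (20 to 24 members higher). Dut, which keeps uracil out of DNA, was at 8.19 and 8.63 on the NC arrays and 8.83 and 9.13 on the arrays labelled shMCT-1 (difference 0.57, SE 0.201). Pcna, the sliding clamp of DNA polymerases, was at 12.95 and 13.20 against 13.41 and 13.60 (0.43). Knl1, a kinetochore scaffold, was at 9.59 and 9.54 against 10.00 and 9.96 (0.41). The groups lay apart in each. Below 0 were E2f1, a transcription factor of S phase entry, at -0.14, and Cdc25b, a phosphatase of mitotic entry, at -0.11, each with both arrays labelled shMCT-1 below both NC arrays.

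All 6 expressed members of the ribosomal protein list had a higher mean, as did 71.0% of all 904 genes, and their median was 0.29. In 3 members both arrays labelled shMCT-1 lay above both NC arrays (33.7% of all 904 genes). The 6 members kept the higher mean without each array and after both scalings, with a median of 0.15 without NC replicate 1. The largest were Nop10, a small protein of the H/ACA ribonucleoprotein, at 0.47 (5.53 and 6.27 on the NC arrays, 6.26 and 6.47 on the others, overlapping), which passed the level limit only through the latter, and Mrps26 at 0.36. Rpl7a, of the large cytosolic subunit, was at 13.35 and 13.49 against 13.68 and 13.72 (0.28), with separate arrays. Without Nop10 the median of the other 5 was 0.28. With limma 0 of the 6 passed.

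The list of MCT-1 and translation initiation factors had 4 members on the chromosome, Mcts2 among them, and all 4 had a higher mean with a median of 0.22 (0 passed). Eif2s2, the beta subunit of initiation factor eIF2, was at 12.10 and 12.05 on the NC arrays and 12.32 and 12.31 on the arrays labelled shMCT-1, a difference of 0.24 with close replicates. Eif6, which keeps the ribosomal subunits apart, was at 0.20, and Eif2ak4, the amino acid sensing kinase GCN2, at 0.12. Dropping NC replicate 1 gave a median of 0.14 and dropping NC replicate 2 one of 0.36. Dropping replicate 1 of shMCT-1 gave 0.37 and dropping its replicate 2 gave 0.16. In the first and last of these cases 3 of the 4 were higher.

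**Figure D4:**
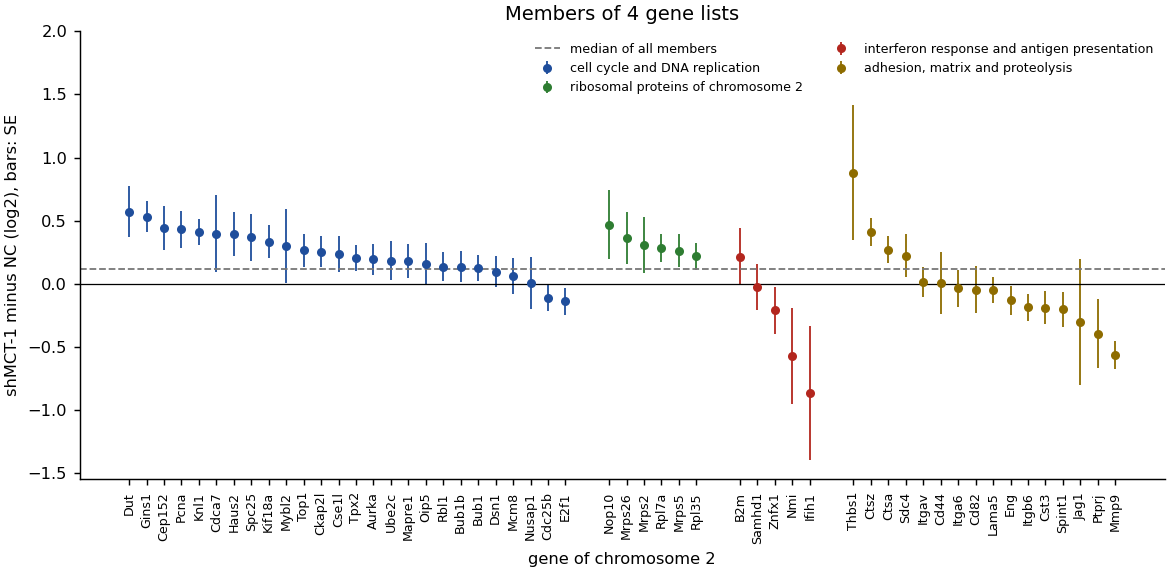
Log2 difference, shMCT-1 minus NC, with its SE from the limma fit for the members of 4 gene lists on chromosome 2, and the median of all 904 genes (dashed line, 0.12). Of the cell cycle genes 24 of 26 lie above 0 and of the ribosomal genes 6 of 6, while 1 of 5 interferon genes and 6 of 16 adhesion genes do. Of all 904 genes 71.0% do.

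Interferon and antigen presentation genes had the opposite sign, and NC replicate 1 set it. Of 5 expressed members 1 was higher, the median was -0.21, and 0 passed. Ifih1, the cytosolic sensor MDA5 of viral RNA, was at 9.54 and 7.99 on the NC arrays and 8.08 and 7.72 on the arrays labelled shMCT-1 (difference -0.87, SE 0.527). Nmi, an interferon-induced partner of STAT proteins, was at 9.50 and 8.45 against 8.60 and 8.20 (-0.57, SE 0.381). In both genes NC replicate 1 was far above the other 3 arrays, which lay close together. Over the 5 genes, the median of NC replicate 1 minus the mean of the other 3 arrays was 0.46. Without NC replicate 1, Ifih1 was at -0.093 and Nmi at -0.046, and the median difference of the 5 genes was 0.028 with 3 of 5 higher. B2m, the light chain of MHC class I, was at 17.49, 16.91, 17.51 and 17.32, a difference of 0.22 with overlapping groups.

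Innate immunity genes showed no common direction, with 5 of 9 expressed members higher, a median of 0.079 (-0.014 without NC replicate 2) and 0 passed. Traf1, an adaptor of TNF receptors, was at 7.70 and 7.504 on the NC arrays and 8.09 and 8.13 on the arrays labelled shMCT-1 (difference 0.50, SE 0.121), with separate arrays. Tgm2, a transglutaminase, was at 9.30 and 8.11 against 8.15 and 7.70 (-0.78, SE 0.428), where NC replicate 1 was again the high array. The difference of Tgm2 was -0.18 without it. Il1a, the gene of interleukin 1 alpha, was bright on all arrays, from 16.86 to 17.06, with a difference of -0.053.

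Adhesion, matrix and proteolysis genes were mixed as well, with 6 of 16 expressed members higher (4 after either scaling), a median of -0.048 (0.042 without shMCT-1 replicate 1) and 0 passed. In 6 members both arrays labelled shMCT-1 lay below both NC arrays, Mmp9 among them, and in 2 members above. Over all 904 genes these shares were 8.74% below and 33.7% above, and 71.0% had a higher mean. Thbs1, the matrix protein thrombospondin 1, was at 13.41 and 12.26 on the NC arrays and 14.28 and 13.15 on the others (difference 0.88, SE 0.533). Replicate 1 was the higher array in each group, so the groups overlapped in spite of the large difference. Ctsz, a lysosomal cathepsin, was at 13.40 and 13.42 against 13.75 and 13.89 (0.41, SE 0.111) with separate arrays. Cd44, a hyaluronan receptor, was at 13.79, 14.31, 13.82 and 14.29, a difference of 0.0049.

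Kinases and signalling genes were mostly higher, 9 of 10 members (7 after either scaling) with a median of 0.088, which is below that of the chromosome, and 0 passed. Spred1, an inhibitor of Ras and ERK signalling, was at 8.37 and 8.62 against 8.80 and 8.99 (0.40), and Stk4, the Hippo pathway kinase MST1, at 9.28 and 9.42 against 9.64 and 9.78 (0.36). In these 2 genes the groups lay apart. Of the 5 expressed members of the transcription factor list 2 were higher and 0 passed (median -0.063). That list leaves out other transcription factors named here, such as Mga and E2f1. Atf2, a bZIP factor, was at 0.32, and Ehf, an epithelial ETS factor, was at 9.10 and 8.23 against 8.21 and 7.80 (-0.67, SE 0.328), with separate arrays of which NC replicate 1 was far the highest. Without that array Ehf was at -0.23.

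The list of endoplasmic reticulum and ATF4 stress genes, which also held Cat and Nfe2l2, had 6 of 10 members higher (5 after either scaling). Its median was 0.093 and 0 passed. The median was -0.19 without NC replicate 2. Edem2, which helps to clear misfolded glycoproteins, was at 9.05 and 8.75 against 8.52 and 8.50 (-0.39, SE 0.139) with separate arrays. Lipid and sterol metabolism had 4 expressed members, all of them lower, with a median of -0.14 that turned to 0.075 without NC replicate 1, and 0 passed. Osbpl2, an oxysterol-binding protein, was at -0.15 and Gpcpd1, a phosphodiesterase of choline metabolism, at -0.14, with overlapping groups in each.

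Imprinted genes of the chromosome did not share a direction. Of 5 expressed members 4 were higher (3 after either scaling), with a median of 0.046 (-0.057 without shMCT-1 replicate 2) and 0 passed. Besides Mcts2 and H13, Blcap was at 5.95, 6.35, 6.09 and 6.72, a difference of 0.26 with overlapping groups, and Gnas, the gene of the stimulatory G protein alpha subunit, at 7.11, 7.10, 7.12 and 7.18, a difference of 0.046. Sfmbt2, a Polycomb-related gene, was at 8.07 and 7.29 on the NC arrays and 7.47 and 6.88 on the arrays labelled shMCT-1 (difference -0.51, SE 0.334). Its groups overlapped, and the difference was -0.11 without NC replicate 1.

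Sfmbt2 carries a large cluster of microRNA genes in an intron, with many near-identical copies. RefSeq's annotation places 72 microRNA genes inside it, of which 66 had a row on the array, 47 were below the limit of 6 and 19 were among the 904 genes. Of these 19, 15 had a higher mean, 9 had both arrays labelled shMCT-1 above both NC arrays and 1, Mir669j, had both below. Over all 904 genes these shares were 71.0%, 33.7% and 8.74%. The median of the 19 was 0.26, and 0.094 without NC replicate 1, and 0 passed with limma. Mir466m, Mir467e, Mir669d-2 and Mir669m-1 had an NC mean under 6 and so passed the level limit only through shMCT-1. Without these 4, 11 of 15 were higher with a median of 0.18. The 9 genes with both arrays labelled shMCT-1 above include Mir466m, Mir467e and Mir669m-1. The limit thus set the direction of a part of that count, which is not on a par with the 33.7%. Over all 66, the 47 dim ones included, 57 were higher with a median of 0.17, while 56.4% of all rows of the arrays were higher. By mean difference the host gene had the opposite sign to most of the microRNA genes inside it, but its groups overlapped. Without NC replicate 1 both shrank, the host gene to -0.11 and the median of the 19 to 0.094.

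The families differed in size and values. Of the genes that reached 6 in both groups, all 4 Mir466 genes were higher, with a median of 0.43, as was the 1 Mir467 gene, Mir467c, at 0.26. Of 10 such Mir669 genes 6 were higher, with a median of 0.074. With the 4 others included the medians were 0.43, 0.40 and 0.13 for the 3 families, and 0.20, 0.16 and 0.068 without NC replicate 1. Mir466d was at 7.73 and 8.27 on the NC arrays and 8.55 and 8.74 on the arrays labelled shMCT-1 (difference 0.65, SE 0.211). Mir669j was at 6.81 and 7.09 against 6.65 and 6.74 (-0.25, SE 0.141). These rows measure precursor or host transcripts of copies that may share probe signal, so their values are not independent and their separate sizes are uncertain.

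**Figure D5:**
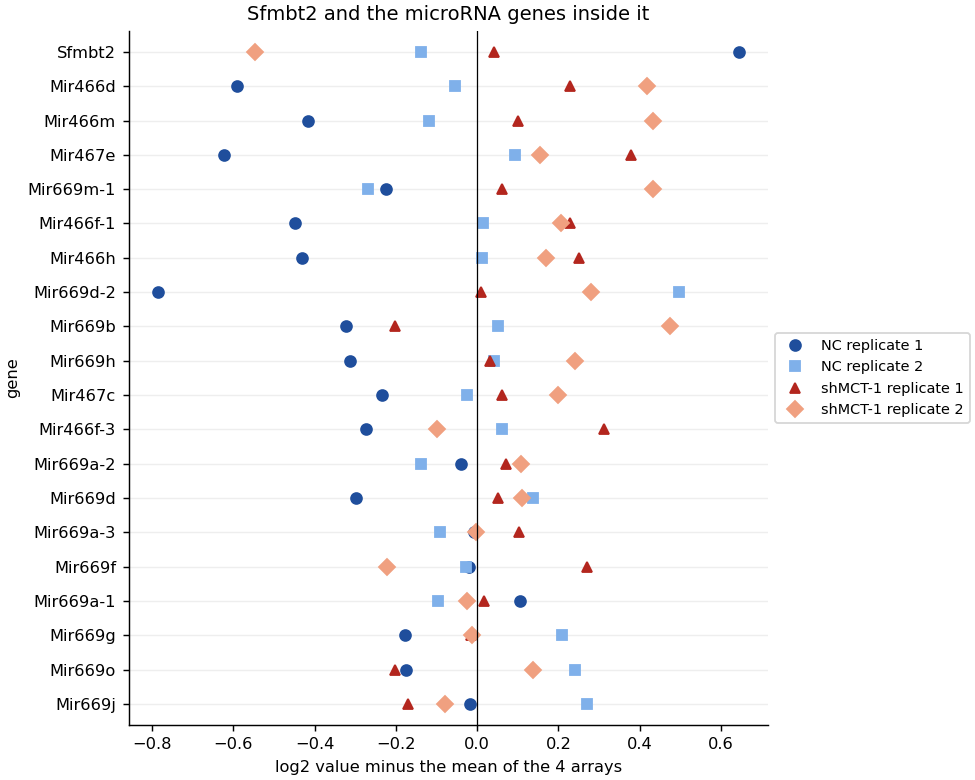
Log2 value of each array minus the mean of the 4 arrays, for Sfmbt2 and the 19 microRNA genes inside it that passed the level limit, ordered by difference. NC replicate 1 is the highest array for the host gene and the lowest for most of the Mir466 and Mir467 genes.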

How the data were processed

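Expression was measured on 4 arrays, 2 per group, with groups taken from the sample titles. The submitters' processing notes name Affymetrix Expression Console and RMA as the authors' tools. Versions, options and build: not given in the sources used here. Deposited log2 values of 65956 rows (1.29 to 19.9) were used as they are, with 0 columns left out. RMA can compress differences of dim and very bright rows.

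Row IDs gave the chromosome and order. Of 5468 rows of chromosome 2, 2674 had 1 gene symbol, 171 several and 2623 were unnamed here; 26 members had a symbol updated through GRCm38.p6 gene IDs. Differences were fitted with limma 3.58.1 (R 4.3.3; lmFit, eBayes, two-sided, Benjamini-Hochberg over all rows, threshold 0.05). Medians, blocks and correlations (Python 3.11.15, pandas 2.3.3) are descriptions without a test. The fit was tested on simulated data. It recovered 3 of 250 planted changes of 1 log2 unit (1.2%) and 194 of 250 of 2 log2 units (77.6%), with 6 false calls per run. The simulated arrays had independent noise and no outlying array. In the data larger differences also did not pass, as for Usp18 at -3.08 (limma adjusted p = 0.899). A count of 0 passed thus does not show that differences are absent, whether of 1 log2 unit or of more.

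The members and the gene lists were chosen with earlier results of these data known. Named genes were Mcts2 with its neighbours, the 8 lowest p per direction (no predicted or small RNA genes), the 2 largest differences of each list and the leading 3 genes of the 2 highest and 2 lowest blocks per strand. Other genes, among them those past 1 log2 unit, further list members, the microRNA genes of Sfmbt2 and those with sequences shown, were picked with their values in view. The alternatives tried were scaling, the variance model, filters, block size and order, a replicate block, and leaving out each array.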

Additional observations from a re-analysis of the deposited data

How the results depend on the processing

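Members called with limma stayed at 0 under every alternative run. The excess of the chromosome over the others kept its sign in all of them, between 0.11 and 0.12. Of 65 named genes other than Mcts2, 49 kept their sign in all 12 fits and 16 did not. Quantile normalization gave -0.0073 for H13, -0.023 for Rbck1 and -4.5e-05 for Bcl2l1, and centring gave -0.019 for H13 and Tbc1d20, -0.021 for Rbck1 and -0.00024 for Bcl2l1. With 1 array left out the ranges were -0.17 to 0.19 for H13, -0.081 to 0.091 for Rbck1, -0.034 to 0.085 for Bcl2l1, -0.11 to 0.13 for Tbc1d20, -0.69 to 0.059 for Smox, -1.80 to 0.71 for Gm25704, -0.17 to 0.23 for Gm14162, -0.076 to 0.23 for Tm9sf4, -0.021 to 0.72 for Gm14277, -0.34 to 0.042 for Osbpl2, -0.50 to 0.087 for Mastl, -0.63 to 0.0011 for Rbm43, -0.60 to 0.42 for Mal, -0.44 to 0.15 for Gpcpd1, -1.87 to 0.80 for Trib3 and -0.086 to 0.010 for Gm14165. For the block that was lowest in the report (with other filters or sizes, the lowest block) the median was -0.083 after quantile normalization, -0.082 after centring, 0.038 with a level limit of 7, -0.12 in blocks of 15, 0.056 in blocks of 50, and -0.052 to 0.012 with 1 array left out. For the block that was highest in the report it was 0.18 after quantile normalization and 0.21 to 0.30 with 1 array left out; the highest of all blocks was then 0.20 and 0.21 to 0.35. Genes with an unadjusted p under 0.05 and 1.5-fold, 9 in the report, numbered 3 without moderation, 19 with a level limit of 5, and 6 to 128 with 1 array left out (128 without NC replicate 2, 19 without shMCT-1 replicate 1). With 1 array left out, genes with separate arrays numbered 373 to 552 higher and 147 to 216 lower, since fewer arrays need to lie apart. The neighbour correlation was then -0.00068 to 0.043, and the correlation of the strands 0.054 to 0.39. The replicate block gave 24 genes with an unadjusted p under 0.05 and 1.5-fold, and for Mcts2 an adjusted p of 0.345 (limma). Deviations of same-numbered arrays had a correlation of 0.42 over all rows and 0.71 over the members, but with 2 pairs the numbers do not show a pairing. All rows include dim rows below the level limit and the members do not, so these correlations are not of like sets. The cause of these differences was not tested.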
